A study of Mus musculus with 4 samples.

Results

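Cytosolic ribosomal protein genes encode the proteins of the large and small subunits of the ribosome that translates messages in the cytoplasm. They were taken here as the rows of the count tables whose symbol is Rpl, Rps or Rplp followed by a number and at most a short suffix, or Rpsa. The kinases named Rps6k and the pseudogene rows ending in -ps were left out. The rule found 87 members among 41543 counted symbols, and 86 of them had enough reads to be tested, among 16112 genes tested in all. Of the 87, 48 are named for large subunit proteins, 33 for small subunit proteins and 3 for the stalk proteins Rplp0, Rplp1 and Rplp2. The other 3, Rps19bp1, Rps23rg1 and Rpl7l1, match the rule by name and are not established subunits of the mature ribosome. Rpl24 was the member not tested, with 4 and 2 counts in replicates 1 and 2 of the libraries labelled KAT6A KO, and 3 and 2 counts in Control replicates 1 and 2.

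The cells were E14TG2a, an established line of mouse embryonic stem (ES) cells that grows on gelatin in medium with serum and LIF, a cytokine that keeps ES cells undifferentiated. The KAT6A KO group, with 2 libraries, was edited with CRISPR/Cas9 to remove KAT6A, an enzyme of the MYST family that acetylates histones. The Control group, also with 2 libraries, came from the same line, and the labels give no further genotype for it. The labels do not say whether the KO cells were a clone or a pool, or whether the replicates were separate cultures, so p-values measure the spread between these libraries, which may be technical. The libraries labelled KAT6A KO held 30185640 and 27494041 counts, and the Control libraries held 35616899 and 37354623. Kat6a itself stood at 242 and 86.4 CPM (counts scaled to library size) in replicates 1 and 2 labelled KAT6A KO, against 145 and 143 CPM in the Controls. The first of these lies above both Controls and the second below, so the RNA level does not check the labels. Levels of the ES cell marker list summed to 6608 and 7006 CPM in the KO-labelled libraries and 5189 and 5228 CPM in the Controls. Of its 10 genes 3 passed the test of KO over Control, all higher (1 to 8 with a library left out). Over all genes tested, 5.76% were higher by the same test with all 4 libraries. The share of mitochondrially encoded counts was 1.80% and 1.30% in the KO-labelled libraries and 2.24% and 2.25% in the Controls. Of 8 fibroblast markers 4 were tested, and their list summed to 30.0 and 25.3 CPM in the KO-labelled libraries and 21.8 and 21.7 CPM in the Controls. Col3a1, Dcn, Lum and Postn stayed under the filter on low counts. The part of these lists in the results below was not tested.

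Each ribosome holds its proteins in fixed proportions. Cells assemble them with ribosomal RNA in the nucleolus and export the subunits to the cytoplasm. In mammals the genes are scattered over nearly all chromosomes, have strong promoters inside CpG islands, and begin their messages with a run of pyrimidines through which growth signalling controls translation. They have also left very many processed pseudogenes, and some have paralogs with restricted expression, such as Rpl10l and Rpl39l, which are known from mouse testis. ES cells divide fast and make new ribosomes through every cycle.

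The promoter is shown for 6 members, because the study's title concerns KAT6A and CpG islands. These genes include paralog pairs whose balance shifted and single genes called higher in the KO-labelled libraries. Rpl10l with its X-linked parent Rpl10, and Rpl22l1 with its parent Rpl22, are the paralog pairs whose balance shifted furthest among those with a called member. Rps21 and Rpl37a are single genes that were higher in the KO-labelled libraries. The 120 bases before the gene start are given 5′ to 3′ in the direction of transcription, with every CG dinucleotide in capitals, from RefSeq on GRCm38.p6. They lie at chr12:66284402-66284521 on the minus strand for Rpl10l, and on the plus strand at chrX:74270692-74270811 for Rpl10, chr3:28805316-28805435 for Rpl22l1, chr4:152325606-152325725 for Rpl22, chr2:180257257-180257376 for Rps21 and chr1:72711140-72711259 for Rpl37a.
Rpl10l: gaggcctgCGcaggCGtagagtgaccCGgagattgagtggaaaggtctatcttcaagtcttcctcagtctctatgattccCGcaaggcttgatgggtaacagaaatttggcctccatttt
Rpl10: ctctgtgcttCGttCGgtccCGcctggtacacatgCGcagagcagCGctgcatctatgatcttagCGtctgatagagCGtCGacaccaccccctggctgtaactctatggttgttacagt
Rpl22l1: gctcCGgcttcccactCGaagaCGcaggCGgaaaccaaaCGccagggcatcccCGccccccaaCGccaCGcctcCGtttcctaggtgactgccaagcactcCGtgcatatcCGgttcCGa
Rpl22: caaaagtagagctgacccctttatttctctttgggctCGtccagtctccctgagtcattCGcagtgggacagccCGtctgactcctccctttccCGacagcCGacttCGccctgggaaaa
Rps21: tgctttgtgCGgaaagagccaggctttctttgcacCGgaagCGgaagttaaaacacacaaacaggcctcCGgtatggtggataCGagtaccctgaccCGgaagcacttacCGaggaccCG
Rpl37a: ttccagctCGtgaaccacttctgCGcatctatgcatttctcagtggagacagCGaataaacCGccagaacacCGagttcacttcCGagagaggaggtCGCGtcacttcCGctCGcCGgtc
These stretches held 4 CG dinucleotides for Rpl10l, 8 for Rpl10, 12 for Rpl22l1, 6 for Rpl22, 8 for Rps21 and 11 for Rpl37a. Of these 6, Rpl22l1, called lower in the KO-labelled libraries, had the most, and Rpl10l, with the highest fold change, the fewest. The 6 were chosen with their changes known, so this order is no result about the family.

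RefSeq promoter windows of 300 bases, 250 before and 50 after a start, were matched by symbol for 67 members, which have 79 windows. A member window held a median of 21 CG dinucleotides, with a range of 2 to 42, and the median over all 32851 mouse windows was 7. The ratio of observed to expected CG was over 0.6 in 86.1% of member windows and 35.8% of all windows, and its medians were 0.862 and 0.384. A run of at least 8 pyrimidines within 50 bases of the start was found in 75.9% of member windows and 35.7% of all windows. Pyrimidines are C or T, read on the strand that has the sequence of the message. The letters CGGAAG on either strand were found in 59.5% of member windows and 16.9% of all windows. TATAAA on either strand was found in 8.86% and 13.6%, and CCAAT on either strand in 30.4% and 37.4%. The median ratio of observed to expected CG was 0.861 in the 11 windows of the members called higher. It was 0.711 in the 4 windows of those called lower and 0.869 in the 64 windows of the others. Median CG counts were 24, 18 and 21 in the same order. CG-rich windows were thus the usual state of the family, whichever way a member moved, and these shares describe letters and not bound sites.

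Across the family, most ribosomal protein genes stood higher in the KO-labelled libraries, by a small amount. The median log2 fold change of KO over Control was 0.25 over the 86 members, a 1.19-fold difference, and 0.01 over all genes tested. Above 0 were 72 members (83.7%), against 50.4% of all genes. Both KO-labelled libraries lay above both Controls for 56 members, or 65.1%, where the background over all genes was 31.5%, and below both Controls for 9 members, or 10.5%, where the background was 32.8%. In the other 21 members the groups overlapped. Relative to the Control mean, the median member stood at a log2 difference of 0.14 in the library labelled KAT6A KO replicate 1, 0.35 in replicate 2 and 0.02 in Control replicate 1. Without KAT6A KO replicate 2 the median log2 fold change was 0.14, and without replicate 1 it was 0.35.

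**Figure D1:**
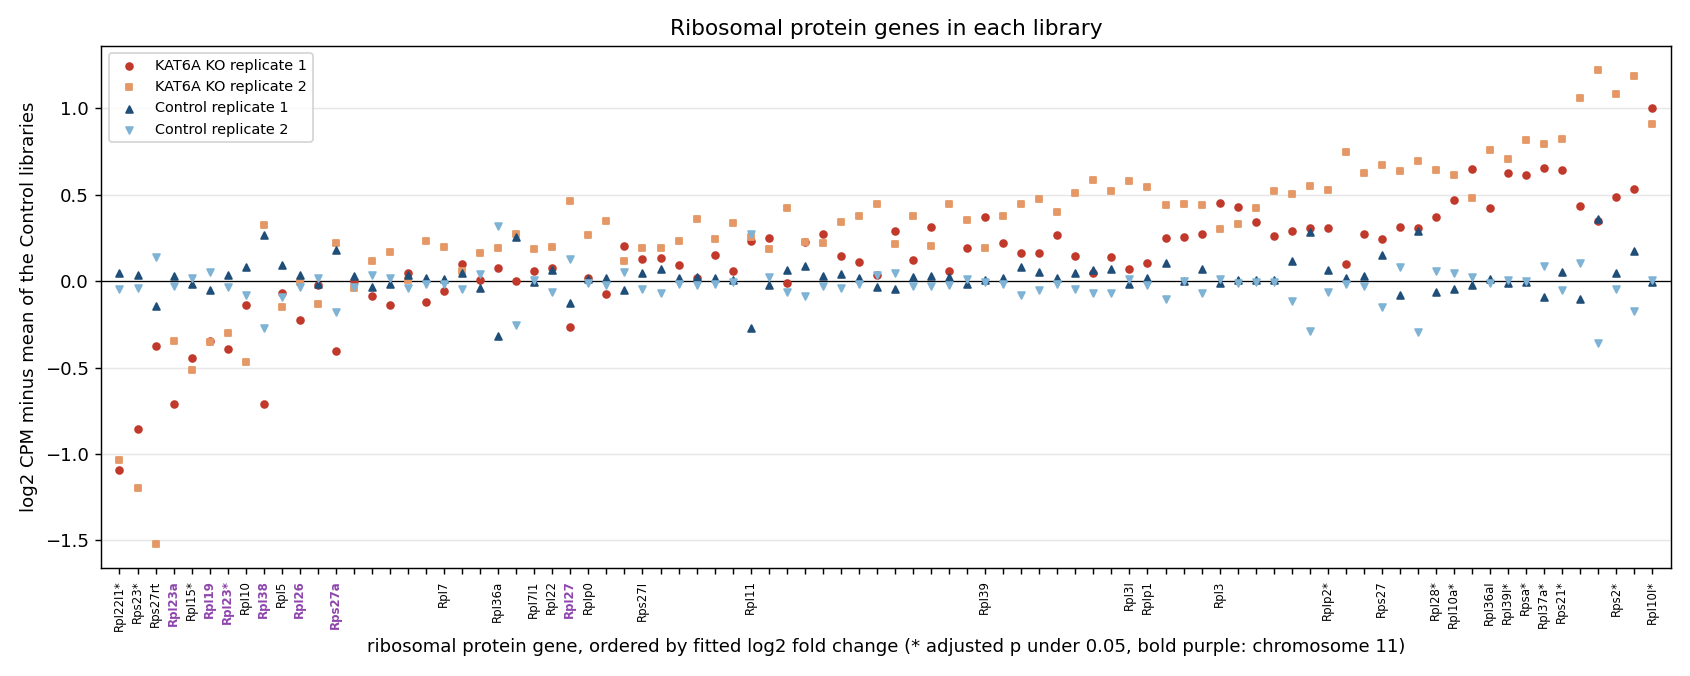
Log2 CPM of each tested ribosomal protein gene minus the mean of the Control libraries (y axis), for the 2 libraries labelled KAT6A KO and the 2 Control libraries (points), with genes ordered by fitted log2 fold change from Rpl22l1 on the left to Rpl10l on the right. KAT6A KO replicate 2 lies above 0 for most genes, asterisks mark the 13 genes that passed the test, and bold purple names mark the 7 genes on chromosome 11.

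The members held 2.17% of all counts in KAT6A KO replicate 1 (95% Wilson binomial interval 2.16 to 2.17) and 2.45% in replicate 2 (2.45 to 2.46). They held 1.98% in Control replicate 1 (1.98 to 1.98) and 1.90% in Control replicate 2 (1.90 to 1.91), and the intervals cover counting error only. Both KO-labelled libraries lay above both Controls. The difference of 0.368 percentage points had a two-sided exact permutation p of 0.333, the smallest that 2 libraries against 2 can give. It was 0.224 points without KAT6A KO replicate 2 and 0.512 points without replicate 1. The 5 members with the most counts held 48.4% to 49.1% of the members' counts in every library. Across members, which are not independent replicates and share the Control mean, the log2 differences of the KO-labelled libraries had a Pearson's r of 0.76 and a Spearman's rho of 0.70 (n = 86 genes).

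Of the 86 members tested, 9 were called higher at an adjusted p under 0.05 by edgeR's quasi-likelihood test with Benjamini-Hochberg adjustment over all genes tested. That is 10.5% of them, and the background over all genes was 5.76% higher. Called lower were 4 members (4.65%), and the background was 8.57%. In either direction the 13 members called are to be read beside a background of 14.3%. The other 73 members had log2 fold changes of -0.86 to 0.89 and edgeR adjusted p-values of 0.0525 to 0.942. By the authors' deposited table, with their own fit, 16 members were higher and 4 lower at the same threshold, among 85 with an adjusted p-value, and these included all 9 and all 4 called here. Over all 14690 genes with an adjusted p-value, 6.94% were higher and 10.1% lower in the authors' deposited table.

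Of the small subunit, 3 genes were called higher (9.09%) and 1 lower (3.03%) among 33 tested, with a median log2 fold change of 0.31. Over all genes tested 5.76% were higher and 8.57% lower. Rps21, a protein on the solvent side of the small subunit, stood at 323 and 366 CPM in the KO-labelled libraries and 214 and 199 CPM in the Controls. Its log2 fold change was 0.74 ± 0.10 (SE; edgeR adjusted p = 0.0115), and the groups lay far apart relative to the spread inside each. Rpsa, a small subunit protein that is also known as the laminin receptor precursor, stood at 26.3 and 30.3 CPM in the KO-labelled libraries and 17.2 and 17.2 CPM in the Controls. Its log2 fold change was 0.72 ± 0.12 (edgeR adjusted p = 0.0174). Rps2, which lies at the entry of the channel for messenger RNA, stood at 281 and 425 CPM in the KO-labelled libraries and 207 and 194 CPM in the Controls. The KO-labelled libraries did not overlap the Controls, yet they differed more from each other than the 2 Controls did. The log2 fold change of Rps2 was 0.82 ± 0.19 (edgeR adjusted p = 0.0363). It was 0.49 without KAT6A KO replicate 2, and Rps2 also shares sequence with 71 annotated pseudogenes, so its count is uncertain. Rps23, a protein of the decoding centre, was the small subunit gene called lower. It stood at 2.83 and 2.22 CPM in the KO-labelled libraries and 5.26 and 4.99 CPM in the Controls, from 86 and 61 counts and 187 and 185 counts, with a log2 fold change of -1.02 ± 0.20 (edgeR adjusted p = 0.0261).

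Of the large subunit, 5 genes were called higher (10.6%) and 3 lower (6.38%) among 47 tested, beside 5.76% and 8.57% over all genes. Their median log2 fold change over the 47 was 0.22, and 0.09 without KAT6A KO replicate 2. Rpl10l, the autosomal intronless copy of Rpl10, had the highest fold change of the family, with 74.3 and 69.7 CPM in the KO-labelled libraries against 36.9 and 37.2 CPM in the Controls. That is a log2 fold change of 0.96 ± 0.09, or 1.94-fold (edgeR adjusted p = 0.0064). Rpl37a, a small zinc-binding protein, stood at 77.5 and 85.6 CPM in the KO-labelled libraries and 46.3 and 52.5 CPM in the Controls, a log2 fold change of 0.72 ± 0.11 (edgeR adjusted p = 0.0137). Rpl39l, the paralog of the exit tunnel protein Rpl39, stood at 60.2 and 63.6 CPM in the KO-labelled libraries and 38.8 and 39.3 CPM in the Controls, a log2 fold change of 0.67 ± 0.09 (edgeR adjusted p = 0.0117). In all 3 genes the libraries of a group lay close together. Rpl10a, which forms the mobile stalk beside the exit site for transfer RNA, stood at 32.2 and 35.6 CPM in the KO-labelled libraries and 22.5 and 24.0 CPM in the Controls. Rpl28 stood at 39.1 and 47.2 CPM in the KO-labelled libraries and 28.9 and 31.5 CPM in the Controls. These 2 genes had log2 fold changes of 0.54 ± 0.11 and 0.51 ± 0.13, with edgeR adjusted p-values of 0.0287 and 0.0443, and in both the groups were separate.

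The large subunit genes called lower were Rpl22l1, Rpl15 and Rpl23. Rpl22l1, the paralog of Rpl22, stood at 26.8 and 27.9 CPM in the KO-labelled libraries and 59.2 and 55.4 CPM in the Controls. Its log2 fold change was -1.06 ± 0.10, or 2.09-fold lower (edgeR adjusted p = 0.0061), the furthest fall of any member. Rpl15, a core protein bound to ribosomal RNA, stood at 59.1 and 56.3 CPM in the KO-labelled libraries and 79.4 and 81.5 CPM in the Controls, a log2 fold change of -0.48 ± 0.09 (edgeR adjusted p = 0.0202). Rpl23, a protein of the face that meets the small subunit and one of those that can bind MDM2, stood at 259 and 276 CPM in the KO-labelled libraries and 348 and 333 CPM in the Controls. Its log2 fold change was -0.35 ± 0.08 (edgeR adjusted p = 0.0419), and Rpl23 is the called member that lies on chromosome 11.

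The stalk of the large subunit, which recruits the elongation factors, is built on Rplp0 by pairs of Rplp1 and Rplp2. Rplp2 was called higher, with 558 and 649 CPM in the KO-labelled libraries and 470 and 431 CPM in the Controls, a log2 fold change of 0.42 ± 0.11 (edgeR adjusted p = 0.0457). Rplp1 stood at 906 and 1228 CPM in the KO-labelled libraries and 852 and 830 CPM in the Controls, and Rplp0 at 501 and 595 CPM in the KO-labelled libraries and 498 and 491 CPM in the Controls. In these 2 genes KAT6A KO replicate 1 was close to the Controls and replicate 2 well above them, and neither passed (log2 fold changes of 0.34 and 0.15, edgeR adjusted p = 0.154 and 0.351). The median of the 3 stalk genes was 0.34, against 0.10 without KAT6A KO replicate 2 and 0.53 without replicate 1. Rpl5 and Rpl11, which form a particle with the smallest ribosomal RNA of the large subunit and can bind MDM2 when free, had few counts. Rpl5 stood at 2.66 and 2.51 CPM in the KO-labelled libraries and 2.98 and 2.62 CPM in the Controls, and Rpl11 at 4.80 and 4.87 CPM in the KO-labelled libraries and 3.38 and 4.94 CPM in the Controls. The groups overlapped in both, and the log2 fold changes were -0.11 and 0.22 (edgeR adjusted p = 0.726 and 0.541).

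The called genes lie on 11 chromosomes. In GRCm38 with the GENCODE M21 annotation, Rpl10l spans 66283379 to 66284401 on chromosome 12, Rpl22l1 spans 28805436 to 28807424 on chromosome 3, Rps21 spans 180257377 to 180258445 on chromosome 2 and Rps2 spans 24718116 to 24721929 on chromosome 17. These 4 passed the edgeR test with any single library left out. Without Control replicate 1 the other 9 called genes did not pass, with edgeR adjusted p-values of 0.0519 for Rpl37a, 0.0579 for Rpl39l, 0.0962 for Rpsa, 0.125 for Rps23, 0.147 for Rpl15, 0.186 for Rplp2, 0.299 for Rpl10a, 0.325 for Rpl28 and 0.437 for Rpl23. Without Control replicate 2 the last 7 of these, from Rpsa on, did not pass, with values of 0.0869 to 0.375. With a Control left out, 6 members were higher and 1 lower (without replicate 1), and 5 higher and 1 lower (without replicate 2). With a KO-labelled library left out, the less variable Controls alone set the spread, and 59 members were higher and 7 lower (without replicate 1) and 34 higher and 8 lower (without replicate 2). Over all genes the shares higher and lower were 1.55% and 4.09% without Control replicate 1, 1.69% and 3.94% without Control replicate 2, 23.9% and 26.2% without KAT6A KO replicate 1, and 20.9% and 22.9% without KAT6A KO replicate 2.

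Paralogs and their parents were compared as the log2 ratio of their CPM inside each library, which removes the library's scaling. The values are not divided by length, so only the difference of a ratio between libraries is read. The ratio of Rpl10l to Rpl10 was 2.48 and 2.72 on the log2 scale in the KO-labelled libraries and 1.25 and 1.43 in the Controls, a difference of 1.26. Here the paralog was higher while Rpl10 stood at 13.3 and 10.6 CPM in the KO-labelled libraries and 15.5 and 13.8 CPM in the Controls (log2 fold change -0.29, edgeR adjusted p = 0.243). Both KO-labelled libraries were below both Controls for Rpl10. Only 7.87% of its 50-base stretches occur in no other annotated gene and 14 pseudogenes share some, so this ratio is uncertain. The ratio of Rpl22l1 to Rpl22 was -4.29 and -4.36 in the KO-labelled libraries and -3.14 and -3.11 in the Controls, a difference of -1.20. Rpl22, the abundant parent whose protein is known in mouse to restrain Rpl22l1, stood at 526 and 572 CPM in the KO-labelled libraries and 522 and 477 CPM in the Controls (log2 fold change 0.14, edgeR adjusted p = 0.336). The ratio of Rpl39l to Rpl39 was -0.58 and -0.32 in the KO-labelled libraries and -0.85 and -0.82 in the Controls, a difference of 0.38. Rpl39 on the X chromosome stood at 90.1 and 79.7 CPM in the KO-labelled libraries and 69.9 and 69.5 CPM in the Controls (log2 fold change 0.28, edgeR adjusted p = 0.0922), so the pair stood higher together, the paralog further. The ratios of the groups did not overlap in 6 of the 8 pairs, these 3 among them. Such separation was common for single genes. Over all genes tested, both KO-labelled libraries lay above both Controls in 31.5% and below both in 32.8%.

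**Figure D2:**
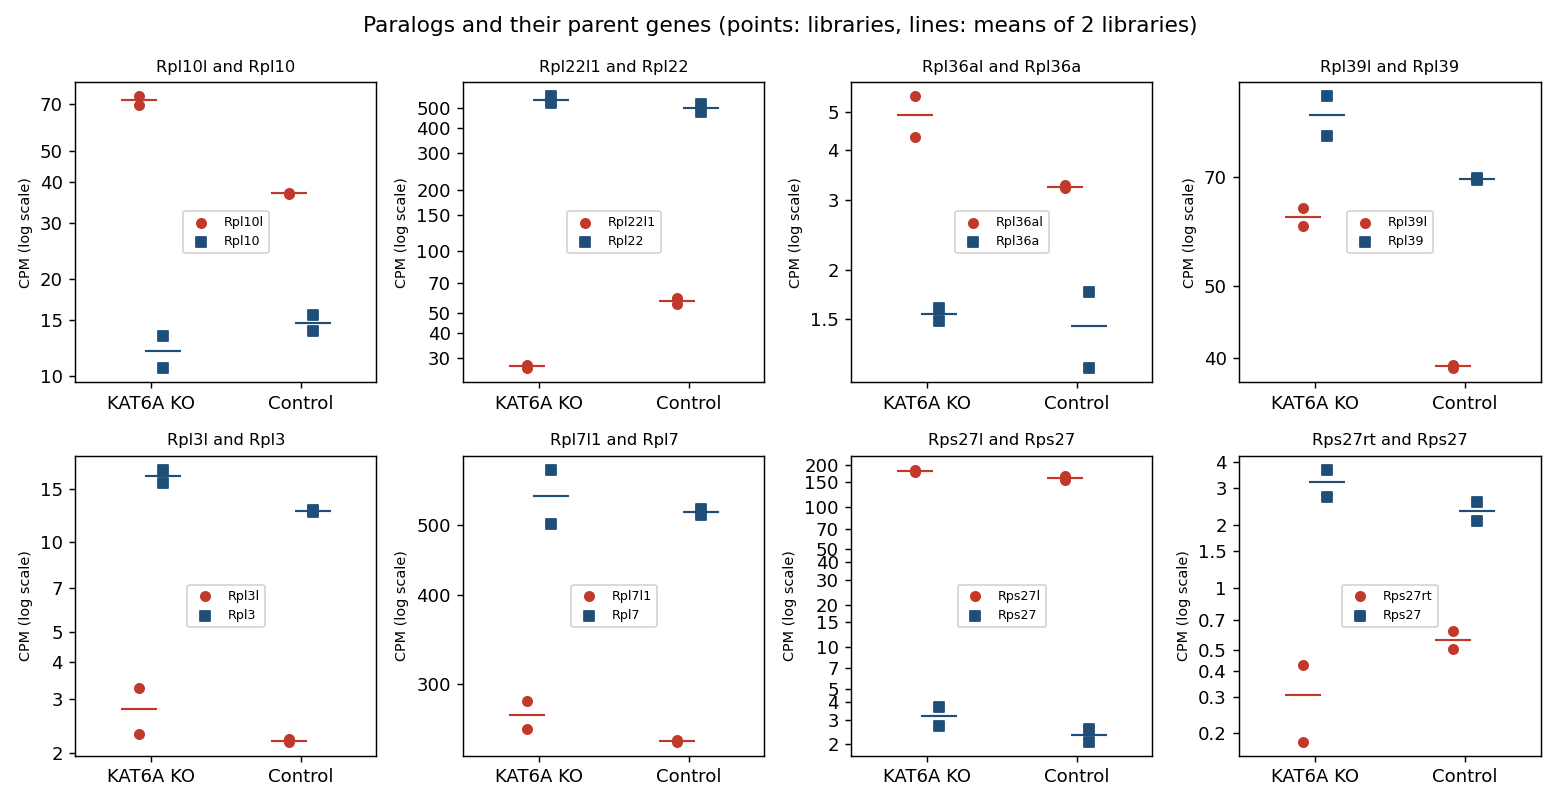
CPM (log scale, a separate range in each panel) of 8 paralogs (red circles) and their parent genes (blue squares) in the libraries labelled KAT6A KO, left, and the Control libraries, right; points are libraries and lines the means of 2 libraries. Rpl10l is higher and Rpl22l1 lower in the KO-labelled libraries, while Rpl10 (log2 fold change -0.29) and Rpl22 (0.14) did not pass the test.

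The other 5 pairs differed less or rested on few counts. The log2 ratio of Rpl36al to Rpl36a was 1.54 and 1.77 in the KO-labelled libraries and 1.52 and 0.87 in the Controls. It differed by 0.46 between the groups, and by 0.13 without Control replicate 2 and 0.79 without Control replicate 1. Rps27l, a target of p53, over Rps27 differed by -0.30, and by -0.11 without KAT6A KO replicate 2. Rps27rt, a retrogene copy listed at under 1 CPM in every library, differed from Rps27 by -1.40, and by -0.61 without KAT6A KO replicate 2 and -2.19 without replicate 1. Rpl3l, the form known from heart and skeletal muscle, over Rpl3 differed by -0.05, and Rpl7l1 over Rpl7 by 0.05, and in both the libraries of the groups overlapped. Without KAT6A KO replicate 1 these differences were 0.28 and -0.01. Over the 8 pairs the two-sided exact permutation p was 0.333 for 6 pairs, 0.667 for Rpl7l1 and 1.0 for Rpl3l, or 0.444, 0.762 and 1.0 after Benjamini-Hochberg adjustment, and 0.333 is the smallest that 2 libraries against 2 allow. Rpl26l1 and Rps4l, paralogs of Rpl26 and Rps4x, are not among the members and were not analysed here.

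Chromosome 11 carries 7 members, and most of them lay below the rest of the family. In order along the chromosome the log2 fold changes were -0.07 for Rps27a, which is made as a fusion with ubiquitin, -0.11 for Rpl26 and -0.53 for Rpl23a at the exit tunnel, -0.35 for Rpl23, -0.35 for Rpl19 of a bridge between the subunits, 0.14 for Rpl27 and -0.14 for Rpl38, a protein known in mouse for the translation of Hox messages. Their median was -0.14, with 6 of 7 below 0, and it was 0.26 over the 79 other members, of which 71 lay above 0. With a library left out, 4 of 7 lay below 0 without KAT6A KO replicate 1 or without Control replicate 1, 6 without Control replicate 2 and 7 without KAT6A KO replicate 2. Across these fits Rpl38 ran from -0.74 to 0.30, Rps27a from -0.42 to 0.21 and Rpl26 from -0.23 to -0.0056, the lowest without KAT6A KO replicate 2 and the highest without KAT6A KO replicate 1. Both KO-labelled libraries were below both Controls for Rpl23a, Rpl23 and Rpl19, and the groups overlapped for the other 4. The 3 below are 42.9% of the 7, beside 32.8% of all genes tested and 77.2% of chromosome 11 genes that are not members. Of these 3, Rpl23a had 30 and 35 counts in the KO-labelled libraries and 59 and 59 in the Controls. Rpl19 had 133 and 120, and 191 and 214. Neither passed (edgeR adjusted p = 0.201 and 0.189). Only 14.3% and 20.7% of their 50-base stretches occur in no other annotated gene, so their counts are uncertain. Rps27a, with 271 to 475 counts a library, and Rpl38, with 70 to 162, also had few counts. Among the 7, Rpl23 was called lower and none higher by edgeR, DESeq2, limma-voom or at an unadjusted p under 0.05. Among the 79 others 9 were called higher (11.4%) and 3 lower (3.80%), beside 5.76% and 8.57% over all genes tested. Genes of chromosome 11 that are not members showed the same side. Over 1315 of them the median was -0.46, with 9 called higher (0.684%) and 535 lower (40.7%). Over the 14711 other genes outside the chromosome the median was 0.04, with 6.19% called higher and 5.72% lower.

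The distance between the chromosome and the rest was then measured in each library. The median log2 difference from the Control mean of the chromosome 11 members, minus that of the other members, was -0.55 and -0.38 in the KO-labelled libraries and 0.01 and -0.01 in the Controls. The same distance for genes that are not members was -0.53 and -0.46 in the KO-labelled libraries and 0.00 and 0.00 in the Controls. The group differences were -0.47 for members and -0.49 for other genes, with a two-sided exact permutation p of 0.333 for each, and whether these 2 values differ was not tested. On their own scale, the chromosome 11 members stood at a median of -0.39 in KAT6A KO replicate 1 and 0.00 in replicate 2. Their median log2 fold change was -0.40 without replicate 2 and -0.01 without replicate 1, so its size rests on which KO-labelled library is kept, while the distance to the other members was present in both. Rpl27 stood at 32.1 and 53.1 CPM in the KO-labelled libraries and 35.3 and 42.1 CPM in the Controls, with a log2 fold change of 0.14 that did not pass (edgeR adjusted p = 0.709). It passed as lower without KAT6A KO replicate 2 (-0.27) and as higher without replicate 1 (0.46).

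**Figure D3:**
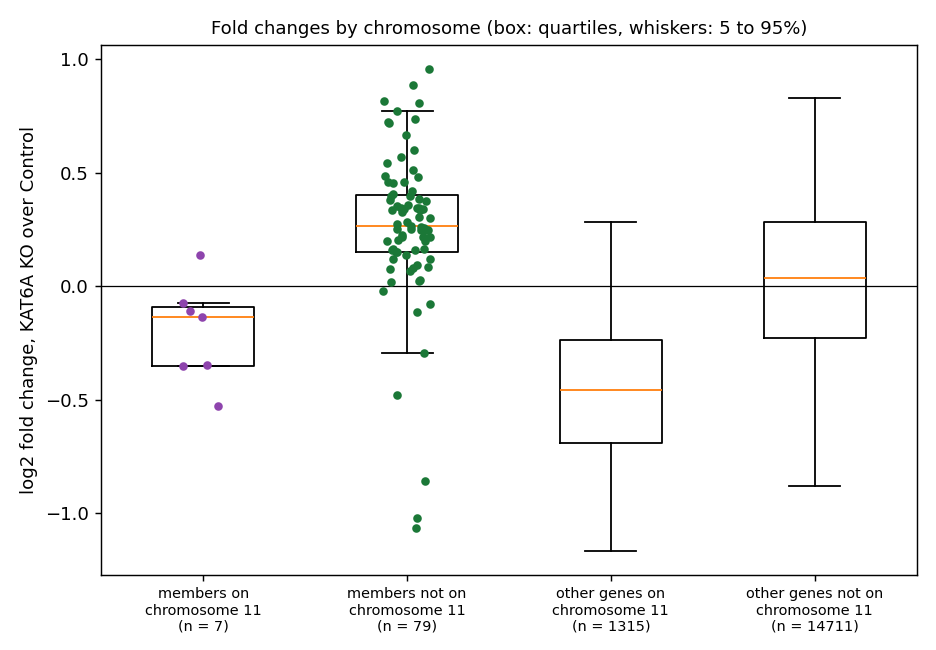
Fitted log2 fold change of KAT6A KO over Control (y axis) for ribosomal protein genes on chromosome 11 and on other chromosomes (points, 1 per gene) and for the other genes tested, by chromosome; boxes are quartiles with the median and whiskers run from the 5th to the 95th percentile. The medians are -0.14, 0.26, -0.46 and 0.04 from left to right.

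Levels between genes were compared per length, as the mean CPM over the 4 libraries per kilobase of annotated exons, for the 85 tested members with an annotation. They ran from 0.687 to 1912 CPM per kilobase, a 2783-fold range, with a median of 42.8. The highest were Rplp1, Rpl4, Rpl8 and Rps15, all above 900 CPM per kilobase. The lowest were Rpl5, Rpl36a, Rpl30, Rps27rt and Rps29, at 1.43 or less. Messages of proteins that are mostly present once in each ribosome were therefore counted at very unequal levels. A property of the sequences ran along with this order. For each member the share of the 50-base stretches of its transcript that occur in no other annotated gene was computed, and it had a median of 47.9% with a range of 1.35% to 100%. The median share was 25.8% in the 28 members with the lowest level, 45.5% in the 29 in the middle and 65.0% in the 28 with the highest. Across the 85 genes, which are not independent replicates, the logarithm of the level and this share had a Pearson's r of 0.51 and a Spearman's rho of 0.52.

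Rpl5, the lowest, had 6.16% of its stretches to itself, and Rpl8 had 92.1%. Pseudogenes sharing a stretch of that length numbered 8 at the median and up to 120 for Rpl7a. The deposited counts are of reads assigned to a gene, and the sources used here do not state how reads with several matching places were treated. Low values of members such as Rpl5, Rpl36a, Rps27 and Rps23 are therefore uncertain as levels. Across members the log2 fold change and the unique share had a Pearson's r of 0.15 and a Spearman's rho of 0.07 (n = 85 genes). The 40 members with at least 50% unique stretches had a median log2 fold change of 0.29, with 7 called higher and 2 lower. The 45 with less had a median of 0.22, with 2 called higher and 2 lower. Rpl39l and Rpl10l, with 100% and 92.4% unique stretches, are the called members whose reads can least be confused with another gene, and Rpl10a, with 11.9%, the one most exposed. Members with a Control mean of at least 1000 counts (51) and under it (35) both had a median log2 fold change of 0.25. The 8 rows of -ps pseudogenes summed to 1.68 and 2.00 CPM in the KO-labelled libraries and 1.43 and 1.81 CPM in the Controls.

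**Figure D4:**
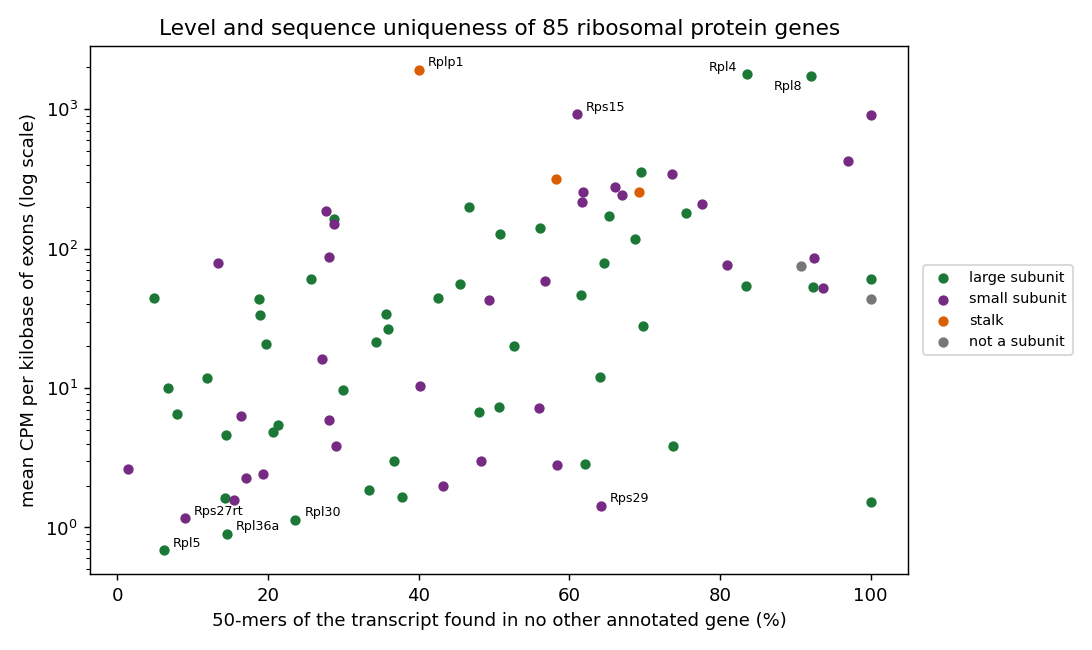
Mean CPM per kilobase of exons (y axis, log scale) against the percentage of 50-base stretches of the transcript found in no other annotated gene (x axis) for 85 ribosomal protein genes, coloured by role; the highest and the lowest are named. Genes with few unique stretches are mostly at the lower levels, with Rplp1 (1912 CPM per kilobase at 40.0%) above that order.

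GC content of the transcripts moved with the fold change in these libraries, in the family as in all genes. Members had a median GC content of 51.8%, and all genes 50.3%. Across 85 members the log2 fold change and GC content had a Pearson's r of 0.43 and a Spearman's rho of 0.43, against 0.30 and 0.37 across 15886 genes. The 43 members at or above the family's median GC content had a median log2 fold change of 0.34, with 7 called higher by edgeR (16.3%). None of these 43 was lower by edgeR, DESeq2, limma-voom or at an unadjusted p under 0.05. The 42 below the median GC content had a median log2 fold change of 0.16, with 2 called higher (4.76%) and 4 lower (9.52%) by edgeR. Over all genes tested 5.76% were higher and 8.57% lower. Rpl22l1 has the lowest GC content of all members, 41.3%. The 5297 other genes whose GC content lies between the members' quartiles had a median log2 fold change of 0.03, with 53.9% above 0. With a GC-content offset in the fit the members' median was 0.22, with 12 called higher and 4 lower, and of all 16112 genes 908 were higher and 1450 lower.

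**Figure D5:**
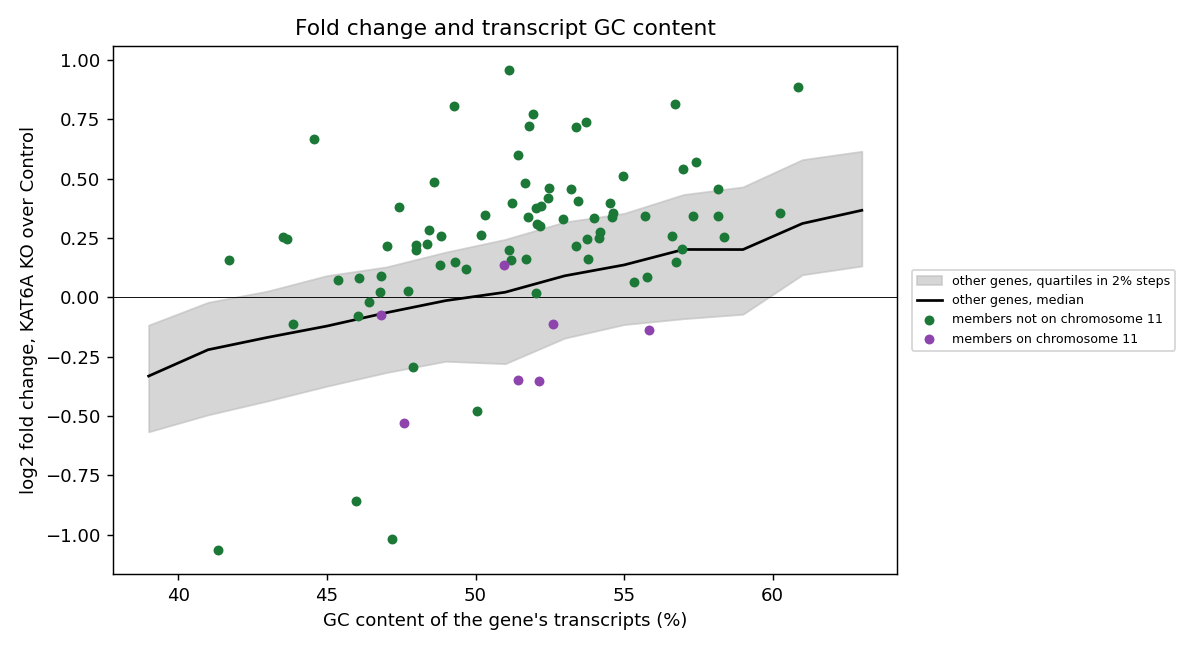
Fitted log2 fold change of KAT6A KO over Control (y axis) against the GC content of the transcripts (x axis, %) for ribosomal protein genes on chromosome 11 (purple) and elsewhere (green); the line and band are the median and quartiles of the other genes in 2% steps. Most green points lie above the line, and the purple points lie on or below it, with Rpl27 above.

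Lists of translation factors, ribosome assembly factors, RNA polymerase I genes and growth regulators had median log2 fold changes of 0.00 to 0.07. Without their chromosome 11 genes the medians were 0.12, 0.05, -0.002 and 0.05 in the same order. Of other ribosome components, Fau, a ribosomal protein fused to a ubiquitin-like protein, had a log2 fold change of 0.74, and Rack1, a small subunit scaffold on chromosome 11, of -0.30. Neither passed (edgeR adjusted p = 0.126 and 0.0707). Both were under 0.05 unadjusted, DESeq2 called neither, and limma-voom called Rack1 lower. Of 39 translation initiation and elongation factors 1 was called higher and 2 lower, with a median of 0.07. Tpt1, a growth-linked gene whose message also starts with a pyrimidine run, was the gene of this list called higher. It stood at 50.9 and 76.4 CPM in the KO-labelled libraries and 36.9 and 25.2 CPM in the Controls, a log2 fold change of 1.03 ± 0.24 (edgeR adjusted p = 0.0396). With no low-count filter, no gene of this list was called higher. Eif4a1 on chromosome 11, the helicase of the cap-binding complex, had a log2 fold change of -0.57, and Eif4e, the cap-binding protein, -0.33.

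Of 61 ribosome assembly factors 4 were called lower (6.56%, beside 8.57% of all genes tested), with a median of 0.00. Of chromosome 11 genes that are not members, 40.7% were called lower. All 4 of these assembly factors lie on that chromosome. They were Npm1, the nucleolar chaperone nucleophosmin, at 1384 and 1429 CPM in the KO-labelled libraries and 2417 and 2363 CPM in the Controls, and Utp6, Utp18 and Pno1 of the small subunit pathway, with log2 fold changes of -0.79, -0.49 and -0.63. None was called higher by edgeR, with 5 higher at an unadjusted p under 0.05, 1 by DESeq2 and 4 by the likelihood ratio test. The 53 assembly factors on other chromosomes had a median of 0.05. Of 17 RNA polymerase I genes, which make the ribosomal RNA precursor, none was called by edgeR, DESeq2 or limma-voom, with 1 higher and 2 lower at an unadjusted p under 0.05 and a median of 0.01. Of 26 growth regulators of these messages 1 was called higher (3.85%), Eif4ebp2 (0.37), and 4 lower (15.4%), with a median of 0.04. Over all genes tested 5.76% were higher and 8.57% lower. Rps6kb1, the kinase of ribosomal protein S6, Larp1, which binds the pyrimidine run, and Rptor of the mTOR complex lie on chromosome 11 and had log2 fold changes of -0.88, -0.56 and -0.44, and Larp4 -0.36. Of 8 S6 kinases 2 were lower, Rps6kb1 again and Rps6ka6 on the X chromosome (-0.63). Of 5 tested genes of the p53 axis that senses free ribosomal proteins none was called by edgeR, DESeq2 or limma-voom, with 1 higher at an unadjusted p under 0.05.

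These counts depended on the libraries. Without KAT6A KO replicate 1, 24 translation factors were higher and 11 lower and 26 assembly factors higher and 11 lower, and without replicate 2 the counts were 12 and 11, and 7 and 22. These stand beside the shares over all genes given above for the same fits. Without Control replicate 1 or 2, 3 assembly factors were lower in each case. RNA polymerase I genes numbered 6 higher and 4 lower without KAT6A KO replicate 1 and 3 higher and 6 lower without replicate 2, and growth regulators 8 and 9, and 8 and 5. The members' own counts, given above, also moved most when a KO-labelled library was left out.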

How the data were processed

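Polyadenylated RNA was sequenced from 2 KAT6A KO and 2 Control libraries of E14TG2a cells, made with the TruSeq Stranded mRNA kit per the labels' protocols. The authors deposited read counts per gene symbol for each library, featureCounts and DESeq2 being the tools named, with no version, by the submitters' processing notes. The sources used here do not state the aligner, build, gene models or use of strand, so overlapping genes may share reads. The deposited normalized counts were not used. The authors also deposited their own DESeq2 comparison as a table with no header, whose columns are by their values a mean signal, a log2 fold change with its standard error, a Wald statistic (score), a p-value and an adjusted p-value.

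The main test ran in edgeR 4.0.16 under R 4.3.3: filterByExpr by group, TMM scaling (factors 0.992 to 1.01), and the robust quasi-likelihood test with group alone, Benjamini-Hochberg adjustment over all genes and a threshold of 0.05. The common biological coefficient of variation was 0.112. Replicates were checked for duplication by a mean chi-square per gene, which was 34.4 between the KO-labelled libraries and 3.70 between the Controls (98.8 and 14.5 over the members), so each library counted separately. Positions, exon lengths and transcript sequences were taken from GENCODE M21 (GRCm38), which holds 97.3% of the symbols. Python 3.11.15, pandas 2.3.3, scipy 1.17.1 and matplotlib 3.10.9 made tables, tests over libraries and plots. The fit was tested on simulated data.

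Named are all called members, the paralog pairs, the members on chromosome 11, the stalk genes, Rpl5, Rpl11 and Rpsa, the highest and lowest levels, and up to 3 called genes per list and direction with Fau and Rack1. Some single genes are not reported here. Rpl7a, Utp18 and Larp4 were named after their values were seen. The members and all lists were chosen with earlier results of these data known. Alternatives were other scalings, filters and tests (DESeq2 1.42.0, limma 3.58.1), an offset for GC content (lowess span 0.3), a block for the replicate number, other sets of rows and each library left out.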

Additional observations from a re-analysis of the deposited data

How the results depend on the processing

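The members' median log2 fold change stayed above 0 and the 4 lower calls remained in number under RLE, no composition scaling, both filters, DESeq2, limma-voom, the likelihood ratio test, the GC-content offset and rescaling without the family, and upper quartile scaling left 3. More members were higher with upper quartile scaling (15, beside 1128 of all 16112 genes), no low-count filter (15, beside 1223 of 25847), DESeq2 (18, beside 1132 of 16112) and the likelihood ratio test (20, beside 1666 of 16112). With the replicate number as a block 18 members were higher, beside 1613 of all genes, and 17 with the block and the GC-content offset, beside 1332. The deviations of the libraries numbered 1 had a correlation of 0.08 between the groups, and with 2 pairs the numbers are not shown to pair the samples. With a library left out, 5 to 59 members were higher and 1 to 8 lower. The stalk median was 0.17 with the GC-content offset, 0.16 with the block as well, and 0.10 to 0.53 with a library left out. The median fold change of chromosome 11 members minus that of the others was -0.40, against -0.56 with the block and the GC-content offset and -0.55 to -0.37 with a library left out. Rps2 did not pass without the low-count filter (edgeR adjusted p = 0.0750), and Rps2, Rpl28 and Rplp2 did not pass when other genes of chromosome 11 were removed from the table (edgeR adjusted p = 0.0547 to 0.0688). Signs turned with a library left out for Rpl27 (-0.27 to 0.46), Rpl38 (-0.74 to 0.30), Rps27a (-0.42 to 0.21), Rpl11 (-0.04 to 0.52), Rpl7 (-0.06 to 0.19), Rpl36a (-0.20 to 0.45), the ratio of Rpl3l to Rpl3 (-0.38 to 0.28) and that of Rpl7l1 to Rpl7 (-0.011 to 0.11). The cause of these changes was not tested. With 2 libraries a group, no test over libraries could pass 0.05, and a group left with 1 library took its spread from the other group.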
